A study of Mus musculus with 15 samples.

Results

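The Zic genes Zic1, Zic2, Zic4 and Zic5 and the Id genes Id1, Id2, Id3 and Id4 were followed in mouse organoids that model the developing cerebral cortex. These 8 genes were chosen by name, as the autosomal members of both families, out of 44260 genes in the deposited table. All 8 were found in it. Earlier results of these data were known when the genes were chosen. The organoids were grown from SpretB6 lines, hybrid cells that carry a genome copy of the laboratory strain C57BL/6J (B6) and a copy of Mus spretus (Spret). There were 3 libraries of day 12 organoids, titled C1 to C3 and called libraries 1, 2 and 3 here. Each had separate values for the B6 and Spret copies of a gene. No treatment is given, and the reverse cross was not analysed here. The labels name the starting material as epiblast stem cells, and the 12 induced pluripotent stem cell samples of the series were not analysed here. The labels do not state whether the 3 libraries came from separate cultures, so p-values reflect only how these libraries vary, part of which may be technical.

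Zic proteins are zinc finger transcription factors related to the Gli proteins of Hedgehog signalling. They are expressed in the dorsal neural tube, the dorsal midline of the forebrain, the septum, the meninges and Cajal-Retzius cells, and Zic2 and Zic5 are also active in pluripotent cells. Id proteins have a helix-loop-helix domain but no DNA-binding region. They pair with E proteins and so keep proneural basic helix-loop-helix (bHLH) factors from binding E boxes. Id genes are well-known direct targets of bone morphogenetic protein (BMP) signalling, which is transmitted by Smad proteins, and they are expressed in dividing neural progenitors.

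The RefSeq table of promoter windows (GRCm38.p6, 250 bases before to 50 after a gene's start) held 6 of the 8 genes. The windows of the 3 genes with an allele difference below and of Zic1 are shown so that the letters at or near the RefSeq starts of the called genes and of a Zic gene with no call can be set side by side. The GENCODE start of Zic5 and of Zic1 lies in the window. The window of Id2 lies wholly inside the GENCODE gene and that of Id4 ends before the GENCODE start. These 2 windows thus do not hold the GENCODE start, and which annotation was used in counting is not given. The windows shown are C57BL/6J sequence, 5′ to 3′ on the gene's strand, and the Spret letters were not analysed here. Capitals mark E boxes (CANNTG) and the GC-rich palindrome GGCGCC known from Smad-bound BMP response elements, searched on both strands. No E box overlapped a palindrome in these windows.
Id2 promoter, chr12:25096043-25096342, minus strand: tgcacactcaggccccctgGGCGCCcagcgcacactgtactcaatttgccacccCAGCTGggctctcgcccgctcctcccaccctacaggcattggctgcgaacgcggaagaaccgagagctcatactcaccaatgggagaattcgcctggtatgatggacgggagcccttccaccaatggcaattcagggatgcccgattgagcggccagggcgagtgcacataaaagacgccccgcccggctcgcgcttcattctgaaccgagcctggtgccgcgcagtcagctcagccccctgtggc
Id4 promoter, chr13:48260866-48261165, plus strand: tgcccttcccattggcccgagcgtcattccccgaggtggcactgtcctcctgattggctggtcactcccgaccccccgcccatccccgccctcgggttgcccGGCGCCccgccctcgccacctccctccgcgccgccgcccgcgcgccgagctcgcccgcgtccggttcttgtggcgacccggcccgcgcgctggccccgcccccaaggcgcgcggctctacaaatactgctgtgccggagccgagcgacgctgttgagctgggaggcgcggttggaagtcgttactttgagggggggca
Zic5 promoter, chr14:122465609-122465908, minus strand: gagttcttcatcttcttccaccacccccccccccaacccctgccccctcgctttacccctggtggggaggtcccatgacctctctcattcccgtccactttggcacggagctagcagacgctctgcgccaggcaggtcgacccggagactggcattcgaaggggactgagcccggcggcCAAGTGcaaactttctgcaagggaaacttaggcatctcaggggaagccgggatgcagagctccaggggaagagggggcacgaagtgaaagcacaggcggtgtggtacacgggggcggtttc
Zic1 promoter, chr9:91365719-91366018, minus strand: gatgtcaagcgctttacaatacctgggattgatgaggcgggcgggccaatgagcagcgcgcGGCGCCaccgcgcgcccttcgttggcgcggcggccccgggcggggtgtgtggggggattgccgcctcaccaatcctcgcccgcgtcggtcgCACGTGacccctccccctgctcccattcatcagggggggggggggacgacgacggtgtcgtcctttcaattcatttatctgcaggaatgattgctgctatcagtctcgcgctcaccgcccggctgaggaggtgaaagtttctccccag

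Id2 and Zic1 held a copy each of the E box and the palindrome, Id4 held the palindrome alone, and Zic5 held the E box alone. A GGCGCC was present in 11.9% of all 32851 promoter windows and in 30.9% of the 9690 windows with at least 60% G and C. An E box was present in 72.3% and 59.0% of them. The window of Id4 had 73.3% G and C, and those of Zic1, Id2 and Zic5 had 65.3%, 63.3% and 62.7%. Zic4 had 46.0% and held 2 E boxes, and Id3 held neither motif. The windows of these 2 genes also lie wholly inside the GENCODE gene. These matches describe the letters and are not evidence of binding.

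Values are the authors' normalised read numbers assigned to an allele, rounded to whole numbers. The B6 columns summed to between 2413876 and 3027078 and the Spret columns to between 2088788 and 2639912. How many reads stand behind a value is unknown here, and values need not be whole reads. Markers of cortical cells were high. The 7 markers of radial glia summed to between 3547 and 4714 per library and the 6 of cortical excitatory neurons to between 17647 and 18004. The 7 markers of pluripotent cells summed to 81, 108 and 30 in libraries 1, 2 and 3. Of the 7, 1 had a summed mean of at least 10, and it was higher from B6 in the allele test given below. Nanog and Zfp42, neither of which is that gene, had at most 5 per library over both alleles. Whether stem cells remained was not tested.

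The 8 genes spanned a wide range of levels. To compare genes, summed values of both alleles were divided by the length of merged exons, in kb. Id2 stood highest at 194 ± 27.8 per kb (SD, n = 3), followed by Id4 at 178 ± 21.4. Zic2 had 57.1 ± 14.0 per kb, Zic1 38.3 ± 18.0 and Id1 25.3 ± 17.3. The lowest were Zic5, at 23.5, 12.3 and 9.20 per kb in libraries 1, 2 and 3, Zic4 at 10.4 ± 5.95 and Id3 at 5.21 ± 2.87 per kb. Id2 and Id4 overlapped, with Id2 higher in libraries 1 and 2 and Id4 in library 3. Zic2 and Zic1 also overlapped in range. All libraries of Id2 and Id4 lay above all libraries of the other 6 genes. Only reads over a difference between the strains can be assigned, so a level per kb also depends on how many such differences an exon holds, which was not analysed.

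**Figure D1:**
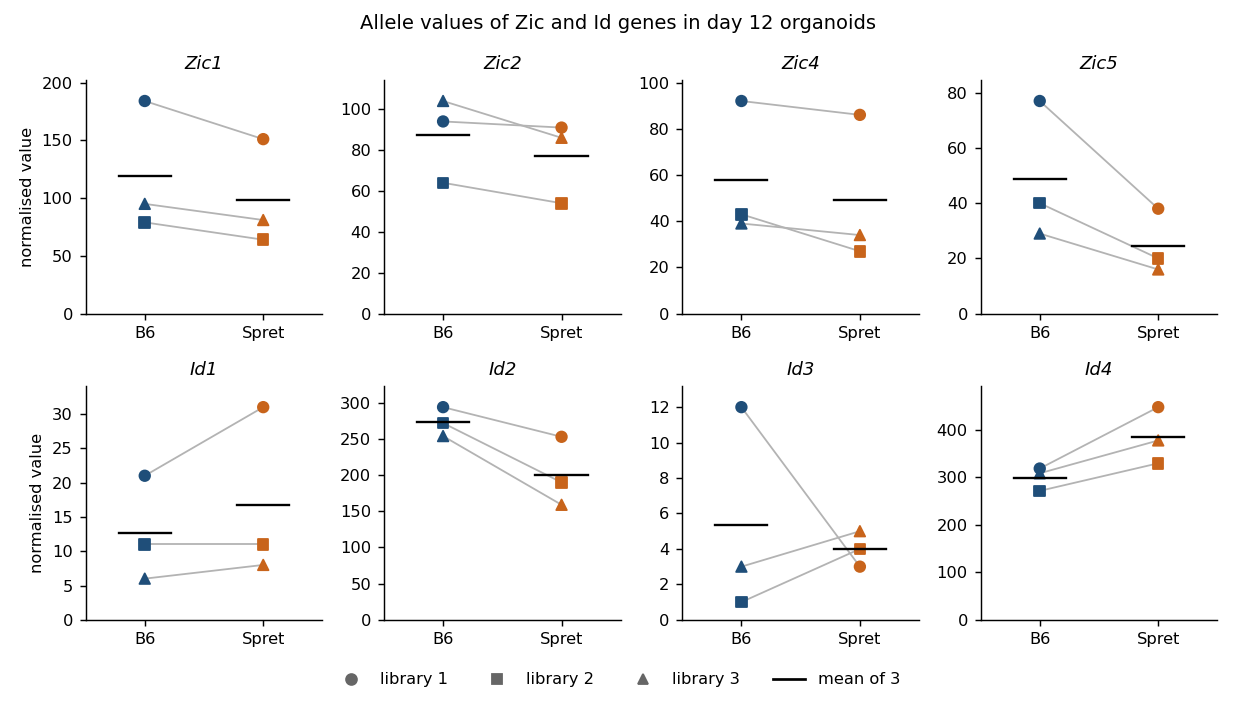
Normalised values of the 8 genes, 1 panel per gene with its own linear axis from 0. Blue symbols are B6 values and orange symbols Spret values, grey lines join the alleles of a library, symbol shapes give the library and black bars the mean of 3 libraries. All lines of Zic5 and Id2 fall toward Spret and all lines of Id4 rise.

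Alleles were compared within each library, which asks whether the B6 and Spret copies differ in the same cells. Of the 8 genes, 7 had a mean of at least 10 over the 6 allele columns and were tested, and Id3 was too low. Differences passed the threshold for 3 of the 7, with Zic5 and Id2 higher from B6 and Id4 higher from Spret. Over 15456 autosomal genes, 28.4% passed the same test (limma, adjusted p under 0.05), 20.7% toward B6 and 7.78% toward Spret. With 7 genes tested, nothing particular to them is read from this count. The 7 genes had a median log2 ratio (Spret to B6) of -0.27, and autosomal genes had -0.13. When each library was centred on the autosomal median, the background was 13.3% toward Spret and 13.5% toward B6, and the same 3 genes were called. Without library 1 the count was 1 of 7, Id2, and without library 3 it was 2 of 7, Zic5 and Id4. None of the 7 was called when alleles were treated as unpaired or with no filter on low values, and without limma's trend in the variance 1 was, Zic5. B6 gave 99.9% of X-linked values and Spret 99.5% of Y-linked values, so B6 is also the maternal copy, and effects of strain and of parental origin cannot be told apart.

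Zic5, on chromosome 14 (mm10, 122456795 to 122465677, minus strand), is a Zic factor with roles in dorsal neural tube and neural crest development. It had the widest allele difference of the tested members. Its B6 values were 77, 40 and 29 in libraries 1, 2 and 3 and its Spret values 38, 20 and 16. The Spret copy gave 33.0%, 33.3% and 35.6% of the summed value, so the share hardly varied while the level did. B6 was higher by 1.90-fold. The log2 ratio was -0.93 ± 0.24 (SE, limma adjusted p = 0.00793) and lay below 0 in 3 of 3 libraries. Without library 1, which holds the highest values, the ratio was -0.89 with an adjusted p = 0.0939.

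Zic2, its neighbour on chromosome 14 (122475435 to 122479852, plus strand), is required for closure of the neural tube and forebrain midline formation. Its values were 94, 64 and 104 from B6 and 91, 54 and 86 from Spret. The ratio was below 0 in each library, at -0.19 with a 95% interval of -0.51 to 0.14 (limma adjusted p = 0.381). Within each library Zic2 leaned less to B6 than Zic5, by 0.95, 0.72 and 0.55 on the log2 scale, a mean difference of 0.74 ± 0.20 (SD, n = 3). An exact sign permutation test over 3 libraries gave p = 0.25 (two-sided), the smallest it can give. The transcript 2610035F20Rik starts 236 bases from Zic2 on the opposite strand and lies between both genes. It read 30, 4 and 15 from B6 and 29, 4 and 17 from Spret, with no call (log2 ratio 0.04, limma adjusted p = 0.943). Both of these transcripts had ratios nearer to 0 than Zic5.

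Zic1 and Zic4 lie on chromosome 9 and run in opposite directions (91358058 to 91365810, minus strand, and 91362413 to 91389348, plus strand). Both act in cerebellar and dorsal midline development. Zic1 read 184, 79 and 95 from B6 and 151, 64 and 81 from Spret. Spret shares were 45.1%, 44.8% and 46.0%, close together in the 3 libraries, yet the log2 ratio of -0.27 was not called (95% interval -0.55 to 0.01, limma adjusted p = 0.139). Zic4 read 92, 43 and 39 from B6 and 86, 27 and 34 from Spret. Its ratio of -0.31 was not called either (interval -0.75 to 0.12, adjusted p = 0.268). The difference between these neighbours was 0.04 ± 0.28 (SD, n = 3), with signs that varied between libraries (exact sign permutation, two-sided, p = 1.0). Their annotated spans overlap by 3398 bases, of which 60 are exonic in both, and the use of strand in counting is not given.

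**Figure D2:**
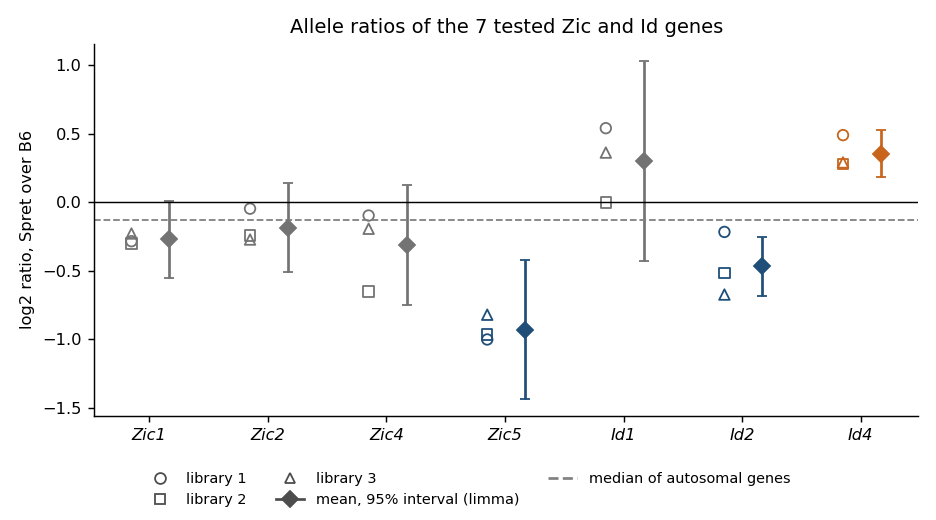
Log2 ratios of Spret to B6 on the log2(value + 1) scale for the 7 tested genes. Open symbols are single libraries, diamonds the mean with its 95% interval from limma, the dashed line the median of autosomal genes, blue and orange mark calls toward B6 and Spret and grey no call. The intervals of Zic5 and Id2 lie below 0 and that of Id4 lies above it.

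Id2, on chromosome 12 (25093799 to 25097140, minus strand), pairs with E proteins and is also known to bind the retinoblastoma protein. It read 294, 272 and 254 from B6 and 253, 190 and 159 from Spret. All B6 values were above all Spret values, though B6 in library 3 (254) barely exceeded Spret in library 1 (253). B6 was higher by 1.38-fold. The log2 ratio was -0.47 ± 0.10 (SE, limma adjusted p = 0.00291), with -0.22, -0.52 and -0.67 in libraries 1, 2 and 3. Without library 3 the ratio was -0.37 with an adjusted p = 0.0503.

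Id4, on chromosome 13 (48261228 to 48266026, plus strand), is known for sustaining neural progenitor division and the timing of cortical neurogenesis. It was the only tested member with a call toward Spret. Id4 read 318, 271 and 308 from B6 and 447, 329 and 377 from Spret, so that every Spret value exceeded every B6 value. Spret was higher by 1.28-fold. The log2 ratio was 0.35 ± 0.08 (SE, limma adjusted p = 0.00376) and lay above 0 in 3 of 3 libraries. Against the general lean to B6 the ratio was 0.48 after centring (adjusted p = 0.000337). Without library 1, whose ratio was 0.49, it was 0.28 with an adjusted p = 0.0801.

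The long noncoding RNA genes A330033J07Rik and Gm49291 run away from Id4 on the opposite strand and overlap its first part. A330033J07Rik read 89, 74 and 62 from B6 and 153, 92 and 77 from Spret. Its log2 ratio was 0.46 ± 0.15 (SE, limma adjusted p = 0.0336). Gm49291 read 88, 79 and 64 from B6 and 153, 92 and 78 from Spret, nearly the same numbers, with a ratio of 0.43 (adjusted p = 0.051). Their exons share 672 bases with each other, and 82 and 171 bases with those of Id4. They leaned to Spret as Id4 did, but whether any reads are counted for more than 1 of the 3 genes was not tested. The call of A330033J07Rik ended without library 1 (ratio 0.31, adjusted p = 0.296) and without library 3 (adjusted p = 0.064).

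Id1 and Id3 are the Id genes most often used as readouts of BMP signalling, and both were low. Id1, on chromosome 2 (152736251 to 152737410), read 21, 11 and 6 from B6 and 31, 11 and 8 from Spret. The log2 ratio of 0.30 had a 95% interval of -0.43 to 1.03 (limma adjusted p = 0.546). A lean of up to 2.04-fold to Spret, or to B6 down to a ratio of -0.43, cannot be told from no difference. Id3, on chromosome 4 (136143497 to 136145755), read 12, 1 and 3 from B6 and 3, 4 and 5 from Spret. Its sign differed between libraries and no ratio is given at these values.

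Genes around the called members did not all share their direction. Within 500 kb of the start of Zic5, 9 genes were tested, with 1 higher from B6 (Clybl), 1 higher from Spret (Tm9sf2, 0.37) and ratios from -0.88 to 0.37. Around Id2, 4 of 9 were higher from B6, among them Kidins220 at -0.30 and Rrm2 at -1.74, and 1, Gm6969, was higher from Spret at 5.12. Around Id4, 1 of 6 was higher from Spret, the A330033J07Rik named above, and Gm37238 was higher from B6 at -0.76. Zic1 and Zic4 had no other tested gene than each other within that distance.

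**Figure D3:**
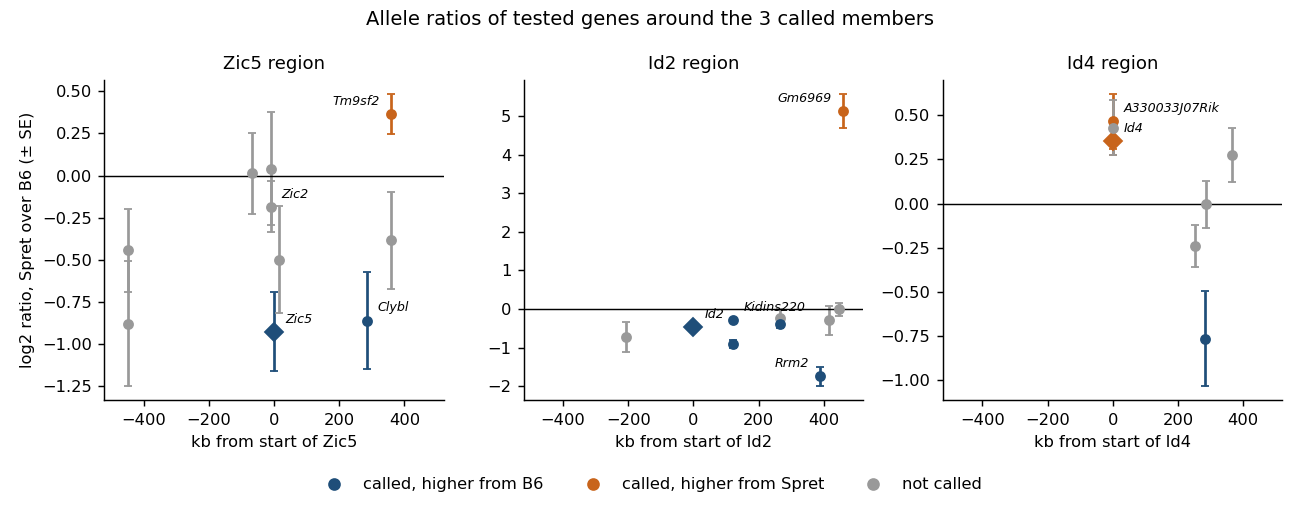
Log2 ratios of Spret to B6 (± SE from limma) of tested genes against the distance of their start from the start of Zic5, Id2 or Id4, in the direction of transcription of that gene, with a separate vertical scale in each panel. Diamonds are the 3 genes themselves, blue and orange mark calls toward B6 and Spret and grey no call. Zic2 sits at -0.19 beside Zic5 at -0.93, and A330033J07Rik sits beside Id4 above 0.

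Levels of Zic1, Zic4, Zic5 and Id1 differed between libraries more than those of Zic2, Id2 and Id4. Summed over both alleles, Zic1 stood at 335, 143 and 176 in libraries 1, 2 and 3, Zic4 at 178, 70 and 73, Zic5 at 115, 60 and 45 and Id1 at 52, 22 and 14. All 4 were highest in library 1 and at least 1.5-fold above each other library, a limit chosen after the values were seen. Of autosomal tested genes, 1.57% met it. Id3, too low to be tested, also met it at 15, 5 and 8, so that the count was 4 of 7 tested members and 5 of all 8. Zic2, at 185, 118 and 190, was highest in library 3, while Id2 at 547, 462 and 413 and Id4 at 765, 600 and 685 were highest in library 1 by less. At 2-fold above each other library 2 genes remained, Zic4 and Id1. With 3 libraries of 1 group there is no test of these differences.

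In these 4 genes both alleles were higher in library 1. Against the mean of libraries 2 and 3, library 1 was 2.11-fold higher in the B6 values of Zic1 and 2.08-fold in its Spret values. For Zic4 these values were 2.24 and 2.82, for Zic5 2.23 and 2.11, and for Id1 2.47 and 3.26. Id3 went another way, with B6 values of 12, 1 and 3 and Spret values of 3, 4 and 5, lowest in library 1. The 4 genes met the limit of 1.5-fold in either allele alone, and when libraries were scaled to equal autosomal totals.

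Markers of choroid plexus and cortical hem, both dorsal midline tissues, were also mostly higher in library 1. The lists were chosen with earlier results of these data known. Of autosomal tested genes, 23.5% were highest in library 1 and 1.57% met the limit of 1.5-fold. Of 9 choroid plexus markers, 8 were highest in library 1 and 7 at least 1.5-fold above each other library, and their summed level was 3353, 847 and 515 in libraries 1, 2 and 3, mostly from Ttr. Of 8 cortical hem markers, 6 were highest in library 1 and 5 met the limit, with sums of 979, 605 and 500. The hem gene Wnt3a itself had 26, 8 and 7. Of 8 Cajal-Retzius markers, 5 were highest in library 1 and 2 met the limit. They summed to 2008, 1212 and 1394, of which Reln alone gave 1509, 851 and 945. Cortical neuron markers stayed between 17647 and 18004, and radial glia markers summed to 4714, 3547 and 4681. The part of these tissues in the levels of Zic1, Zic4, Zic5 and Id1 was not tested. More cells of a type and more RNA per cell cannot be told apart in bulk RNA.

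Other cells known to express Zic or Id genes were also read. Mesenchyme and meninges markers summed to 513, 541 and 483 and neural crest markers to 52, 49 and 24. Midbrain and hindbrain markers summed to 161, 212 and 79, and 4 of the 8 were high enough to be tested, with 0 called. En1 and En2 were not among these, at 15 or less per library over both alleles. Hoxa2 was at 0 in library 3. Endothelial markers, of a cell type rich in Id1 and Id3, summed to 161, 234 and 80. Of these 7 markers, 1 was highest in library 1, while Cldn5 was at 0 there. Astrocyte markers summed to 1444, 1354 and 1908, mostly from Slc1a2. By its sum, none of these lists was highest in library 1 by 1.5-fold above both others. Of single markers, 1 of 3 for neural crest, 1 of 7 for endothelium and 1 of 6 for astrocytes met that limit. Of 11 mesenchyme and meninges markers and of 8 midbrain and hindbrain markers, 0 met it.

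**Figure D4:**
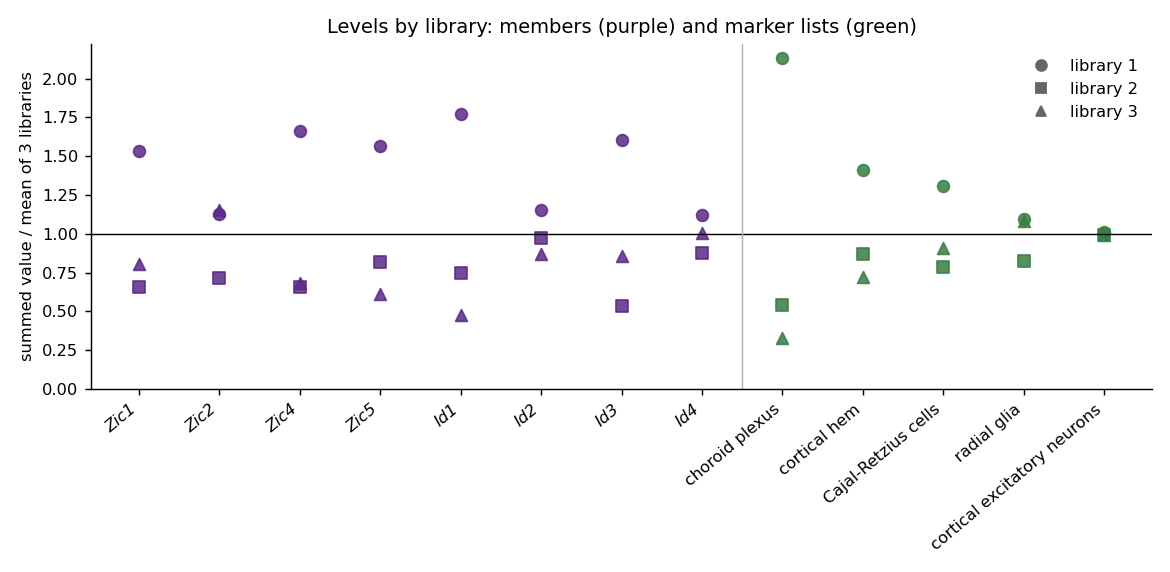
Summed values of both alleles in each library divided by the mean of the 3 libraries, for the 8 genes (purple) and for the sums of 5 marker lists (green), on a linear axis from 0. Symbol shapes give the library. Library 1 lies far above the others for Zic1, Zic4, Zic5, Id1 and the choroid plexus and hem lists, and not for Zic2, Id2, Id4 or the neuron list. Id3, also highest there, rests on low values.

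The pathways that act on Id and Zic genes or through them were read from 10 lists with 68 genes, of which 45 were tested. Calls were made for 10, or 22.2% of those tested, 2 toward Spret and 8 toward B6. The median ratio was -0.07, against -0.13 for autosomal genes. The share called over autosomal genes was 28.4%. With centred ratios the counts were 4 toward Spret and 5 toward B6. Without library 1 they were 1 and 5, and without library 3 they were 2 and 5. Of the 10 calls, those of Bmp3 and Grem1 were also made with unpaired alleles and without limma's trend, and that of Grem1 with no filter, and the other 8 ended in each of these 3 alternatives.

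BMP ligands were low. Of 11, 4 were tested and 1 was called, Bmp3, a noncanonical BMP that opposes the others, which read 45, 31 and 39 from B6 and 14, 15 and 7 from Spret (log2 ratio -1.65, limma adjusted p = 0.00108). Over both alleles, 4 of the 11 ligands were highest in library 1 and 2 by at least 1.5-fold. Among autosomal tested genes these shares were 23.5% and 1.57%. Bmp7, with no call, stood at 114, 39 and 31 in libraries 1, 2 and 3, while Bmp5 stood at 10, 19 and 5. Of 3 other BMP target genes, only Msx1, a BMP target of the dorsal midline, was highest in library 1, at 47, 22 and 14. The 3 genes summed to 63, 46 and 22. Bmp7 and Msx1 thus met the limit in library 1 as Zic1, Zic4, Zic5 and Id1 did, and Zic2 did not. Bmp5, Bmp7 and Msx1 were picked after their values were seen.

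Of 7 BMP receptors, 6 were tested and 2 called, both higher from B6. Bmpr2, the type II receptor, had a ratio of -0.18 (limma adjusted p = 0.0303) and Bmpr1a, a type I receptor, -0.44 (adjusted p = 0.00128). Bmpr1a read 332, 264 and 347 from B6 and 259, 194 and 244 from Spret, with no overlap of the alleles. The call of Bmpr2 ended when ratios were centred (adjusted p = 0.486) and without each library in turn (0.0518 to 0.155), and that of Bmpr1a ended with no filter (0.0617) and without the trend (0.0723). None of the 4 Smad genes was called, with a median ratio of 0.00.

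Among 13 antagonists and inhibitors of BMP signalling, 9 were tested and 1 was called. Grem1, which encodes the secreted antagonist gremlin, read 90, 73 and 47 from B6 and 30, 20 and 15 from Spret. Its ratio of -1.65 ± 0.22 (SE, limma adjusted p = 4.22e-05) was called in each alternative that tested it.

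The E proteins, the partners of Id proteins, had no call in 3 tested genes. Tcf4 read 3349, 3489 and 3119 from B6 and 3261, 3192 and 2969 from Spret, a ratio of -0.08 (limma adjusted p = 0.118). Tcf3 and Tcf12 had ratios of 0.13 each. With centred ratios Tcf12 was called toward Spret at 0.25 (adjusted p = 0.041). No gene of the retinoblastoma family was called of 3 tested. At an unadjusted p under 0.05 in limma, the count was 1 for the E proteins (Tcf4), 0 for the retinoblastoma family and 0 for the Smad genes.

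Of 11 bHLH factors that Id proteins can oppose, 8 were tested, with 1 call toward Spret and 3 toward B6. Neurod1, which drives neuronal differentiation, was higher from Spret at 319, 281 and 249 against 242, 195 and 181 (ratio 0.46, limma adjusted p = 0.00116). The call ended with no filter (0.0543) and without the trend (0.0643). Those toward B6 included Neurod6 at -0.13 and the proneural gene Neurog2 at -0.56. The ratio of Neurod6 was that of the autosomal median, and its call ended when ratios were centred (adjusted p = 0.969) and without each library in turn (0.0771 to 0.148). Neurog2 read 276, 217 and 229 from B6 and 191, 124 and 179 from Spret, and its call ended with no filter (adjusted p = 0.119) and without the trend (0.0708). With centred ratios Neurod4 was called toward Spret at 0.53 (adjusted p = 0.0409). Of 7 Hes and Hey repressors, 3 were tested and Hes5, a Notch target, was higher from Spret at 21, 6 and 19 against 3, 1 and 13, low values whose call ended without library 1 (adjusted p = 0.176). Of 6 Gli and Glis genes, relatives of the Zic family, 4 were tested and Glis3 was higher from B6 at -0.74 (adjusted p = 0.0467). That call ended when ratios were centred (adjusted p = 0.096) and without each library in turn (0.0567 to 0.215).

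Genes with the most similar pattern were sought over 6 numbers, the log2 allele ratio and the centred log2 summed value in each of the 3 libraries, among 8952 autosomal genes with a summed mean of at least 100. The measure was the root mean square difference on the log2 scale, where a smaller value is closer. Nearest to Zic5 were Ppp1r14b, Bysl and Snrpf, at 0.22, 0.29 and 0.29. Nearest to Id2 were Tyms, Ddit4 and Drg1, at 0.07, 0.09 and 0.09, and nearest to Id4 were Igsf10, Gm42928 and Stub1, at 0.03, 0.05 and 0.05. For Zic4, which has no call, Zic1 was the closest of all candidates at 0.19, and the values of both come from the same 3 libraries. The match was not mutual. Nearest to Zic1, also without a call, were Reln, Cfap69 and Slc6a15, at 0.14, 0.14 and 0.15.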

How the data were processed

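Per the labels' protocols, ribosomal RNA was depleted before sequencing and the aim was 80M reads for each sample. The values are a score in the deposited table: allele-specific normalised read numbers, rounded to whole numbers by the authors, per the name of the table. Reads were placed on mm10, per the submitters' processing notes. Methods of alignment, allele assignment, counting, strand use and scaling are not given in the sources used here. In libraries 1 and 2, 27 and 43 of the whole numbers up to 200 were held by no gene, and in library 3 none was empty, a trace of the scaling, so no count test was used. Alignment that favours B6 would raise B6 values, which was not tested.

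The ratio of a gene is the difference of log2(value + 1) between Spret and B6, a scale that understates low genes. The test was limma (version 3.58.1, R 4.3.3) on the 15985 genes whose mean over the 6 columns reached 10. The model held terms for allele and for library, and the variance prior followed the mean. P-values are two-sided, with Benjamini-Hochberg adjustment over all tested genes, and calls are at 0.05. There were 2 residual degrees of freedom, to which the prior added 12.3. The script was tested on simulated data, with a spread that was set and not estimated from these libraries. It recovered 31.8%, 70.1% and 92.4% of genes changed by 1.5-fold, 2-fold and 3-fold. A gene without a call may therefore still differ between alleles. The alleles of a library are paired because both come from the same RNA, and their deviations from the allele means correlated at 0.205, 0.435 and 0.550 in libraries 1, 2 and 3, across autosomal genes. Positions and exon lengths come from GENCODE M21 of GRCm38, the assembly that mm10 names. The members and lists were chosen with earlier results of these data known. Named genes are all 8 members, the called gene of highest summed value per pathway list and direction, tested genes overlapping or within 5 kb of a member, and the 3 genes nearest in pattern. Bmpr1a, Neurog2, Tcf3, Tcf4, Tcf12, Neurod4, Bmp5, Bmp7, Msx1 and the genes named within 500 kb were added after their values were seen. So were the genes nearest in pattern to Zic1 and Zic4. Of the 13 marker lists, those not described above are intermediate progenitors (2543, 2093 and 2060 in libraries 1, 2 and 3) and ventral telencephalon (289, 227 and 273). Some genes of the lists are not reported here.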

Additional observations from a re-analysis of the deposited data

How the results depend on the processing

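Treating the alleles as unpaired (no replicate block) gave the same ratios for Zic5, Id2 and Id4 (-0.93, -0.47 and 0.35) without a call (limma adjusted p = 0.202, 0.181 and 0.253), and so did testing with no filter on low values (0.0667, 0.149 and 0.11). Without limma's trend Id2 and Id4 lost their calls at the same ratios (0.103 and 0.118). Leaving out each library in turn gave ratios from -0.98 to -0.89 for Zic5, -0.59 to -0.37 for Id2 and 0.28 to 0.39 for Id4. Pseudocounts of 0.5 and 5 and centring kept all 3 calls. At a minimum mean of 50, Zic5 and Id1 had no value and Id2 and Id4 kept their calls.

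Members called toward Spret numbered 0 with no block, no filter or no trend, and from 0 to 1 over libraries left out, against 1. Toward B6 they numbered 0 with no block or no filter, 1 with no trend or at a minimum of 50, and from 1 to 2 over libraries left out, against 2. For pathway genes the count toward Spret was 0 with no block, no filter or no trend, 4 with centred ratios, 1 at a minimum of 50 and from 1 to 2 over libraries left out, against 2. Toward B6 it was 2 with no block or no trend, 1 with no filter, 5 with centred ratios or at a minimum of 50 and from 5 to 6 over libraries left out, against 8. Autosomal genes called toward Spret and B6 numbered 1202 and 3193 as reported, 261 and 826 with no block, 180 and 542 with no filter, 463 and 1312 with no trend, 2050 and 2091 with centred ratios, and from 573 to 1000 and from 1646 to 2628 over libraries left out. Centring subtracts the autosomal median ratio of each library, so it moves the directions toward balance by construction. The direction of each called member stayed.

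The difference between Zic1 and Zic4 ran from -0.11 to 0.16 over libraries left out and changed sign to -0.11 without library 2. That between Zic2 and Zic5 ran from 0.64 to 0.84. Of the 7 tested members, the number at least 1.5-fold higher in library 1, a result whose alternatives were chosen after seeing the data, was 2 at 2-fold and from 4 to 5 over libraries left out, against 4, and 5 with the untested Id3 included. Where a cause is not plain from the setting, the cause was not tested.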
